A study of Sus scrofa with 6 samples.

Results

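B cell and germinal centre genes were examined in jejunum (the stretch of small intestine between duodenum and ileum) from weaned piglets with and without transport. The set was given as 8 gene symbols: CD79A, CD79B, MS4A1, PAX5, FCRLA, CR2, BCL6 and BLK. Rows of the deposited gene table were taken by symbol, which found 7 of the 8 among 24358 genes; CR2 was not analysed here. The symbols were chosen with the levels of these libraries known, among them the level of CD79B in a single library, so the levels below are descriptions of the members and no test of them is offered as support.

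All piglets were of a Large White by Landrace cross and described as healthy. There were 3 control libraries, taken without transport, and 3 libraries from transported piglets, each from total RNA of jejunum kept at low temperature until Trizol extraction. Age, sex, litter, length of journey and time of sampling were not given in the sources used here. Whether the libraries of a group stand for different piglets is not stated either, so p-values reflect the scatter among libraries and may hold technical scatter only. Total counts ran from 48208451 to 53739246 per library.

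B cells recognise antigen through a surface immunoglobulin that signals through the paired chains CD79A and CD79B. In the gut wall they gather in lymphoid follicles, which in Peyer's patches form large groups, and there they multiply and mutate their immunoglobulin genes inside germinal centres before some leave as antibody-secreting plasma cells. The transcription factor PAX5 maintains B cell identity, BCL6 is the repressor that drives the germinal centre programme, and plasma cells switch off most B cell surface genes. Young pigs have separate patches along the jejunum and a long continuous patch in the ileum, the last part of the small intestine.

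In 1 library several genes of gut region went against the tissue label. In the library labelled transport 3, the ileal bile acid binding protein gene FABP6 was at 6836 FPKM (fragments scaled by transcript length and sequencing depth) against 2.83 to 13.8 in the other 5. CUBN, which encodes the ileal vitamin B12 receptor cubilin, was at 19.0 FPKM against at most 0.0321. Not all ileal genes went this way: of 7, 5 were highest in transport 3 and 2, SLC51B and NR0B2, were lowest. GATA4, a transcription factor of the proximal small intestine that in mice is missing from the distal ileum, reached 0.906 FPKM in transport 3 and 44.4 to 59.5 elsewhere. The library's median correlation with the other libraries, on log2 CPM (the count scaled to library size) across genes, was 0.818, where the other libraries had 0.888 to 0.930. Control 2 also stood apart, with 8.56 FPKM of the smooth muscle myosin gene MYH11 against 199.9 to 643 in the other 5. Results are therefore given with and without transport 3, which is kept under its deposited label.

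All 7 members were highest in transport 3, and by at least 10 times over the second highest library in 6 of them. Of all 13478 genes reaching 1 FPKM in some library, 1.57% met that rule in transport 3. The members were chosen with these levels in view, so nothing is read from that contrast. Together the 7 genes took 0.342% of all counts in transport 3 and 0.00521% to 0.00866% in the other 5 libraries. In bulk tissue, fewer cells of a type and less RNA per cell cannot be told apart.

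**Figure D1:**
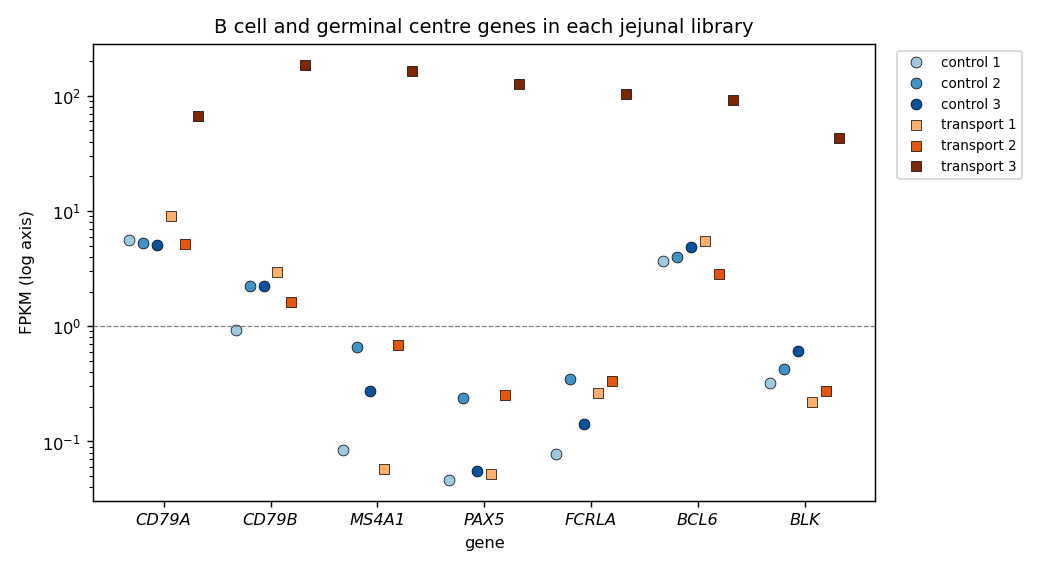
FPKM of each member (log axis) in the 3 control libraries (circles) and the 3 transport libraries (squares), 1 point per library, with a dashed line at an FPKM of 1. Transport 3 lies above every other library for all 7 genes, by 7.30 times for CD79A and by 495 times for PAX5.

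The receptor chains came first. CD79B, the beta signalling chain of the B cell receptor, had 0.934, 2.24 and 2.22 FPKM in controls 1 to 3 and 2.97, 1.63 and 186 FPKM in transports 1 to 3. The gene, ENSSSCG00000017283, lies on the plus strand of chromosome 12 at 15052783 to 15057229 in the coordinates of the table, for which no build was named. ENSSSCG00000040096, an unnamed gene on the minus strand at 15046237 to 15084795, spans it and was counted 2 times in transport 3 and 0 times in the others. Transport 3 was 62.5 times transport 1, the next in order, and the remaining transport libraries lay on either side of controls 2 and 3. CD79B ranked 204 by FPKM among the genes of transport 3 and between 9074 and 11898 in the other libraries.

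CD79A, the partner chain, had 5.64, 5.27 and 5.02 FPKM in controls 1 to 3 and 9.06, 5.16 and 66.1 FPKM in transports 1 to 3. It was the member with the smallest step, 7.30 times from transport 1 to transport 3. ENSSSCG00000033684 spans 49975961 to 49999349 on the minus strand of chromosome 6 and overlaps ARHGEF1, a guanine nucleotide exchange factor gene on the same strand, so reads in the shared stretch could have gone to either. ARHGEF1 had 12.0 to 18.0 FPKM in the other 5 libraries and 28.7 in transport 3. FPKM of CD79A was 0.370 to 0.503 times that of ARHGEF1 in those 5 libraries and 2.30 times in transport 3. How far reads of ARHGEF1 enter the level of CD79A was not tested. The counts and FPKM of CD79A imply a transcript of about 5593 bases, and its level per length depends on that model. FPKM of CD79A exceeded that of CD79B by 2.27 to 6.04 times in the 5 libraries, while in transport 3 the ratio was 0.356. How far the overlaps of CD79A and CD79B with other genes enter this ratio was not tested.

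MS4A1 encodes CD20, a surface protein of B cells that plasma cells lose. It was counted 11, 85 and 37 times in controls 1 to 3 and 8, 91 and 22719 times in transports 1 to 3, or 0.0849, 0.660 and 0.276 FPKM and 0.0580, 0.691 and 164 FPKM. With 8 counts in transport 1, the exact Poisson interval at 95% runs from 3.45 to 15.8 counts and covers counting error only. Transport 3 was 238 times transport 2, and below it the groups overlapped fully, with both the lowest and the second highest library in the transport group. ENSSSCG00000021812 lies on the minus strand of chromosome 2 at 11216238 to 11229060.

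FCRLA, an intracellular Fc receptor-like protein of B cells, was below 1 FPKM outside transport 3. It had 0.0784, 0.351 and 0.143 FPKM in controls 1 to 3, then 0.263, 0.336 and 104 FPKM in transports 1 to 3, a step of 296 times above control 2. The gene ENSSSCG00000030246 is on the minus strand of chromosome 4 at 88845464 to 88855793.

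BLK, a Src family kinase that acts close to the B cell receptor, had 0.323, 0.426 and 0.608 FPKM in controls 1 to 3, then 0.220, 0.276 and 42.8 FPKM in transports 1 to 3. Here the 2 low transport libraries lay below all 3 controls, and transport 3 was 70.4 times control 3. ENSSSCG00000027568 is on the plus strand of chromosome 14 at 14688908 to 14745947.

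The transcription factors showed both the largest and one of the smallest steps. PAX5 was counted 22, 116 and 28 times in controls 1 to 3 and 26, 127 and 66076 times in transports 1 to 3, which is 0.0463, 0.237 and 0.0558 FPKM and 0.0523, 0.254 and 126 FPKM. Its step from transport 2 to transport 3, at 495 times, was the largest of the members. By this ratio, with counts of 0 written as 0.0001 FPKM, it ranked 23 among the genes highest in transport 3. ENSSSCG00000036086 covers 237575059 to 237785158 on the minus strand of chromosome 1, and the small RNA gene RF00026 lies within the same span.

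BCL6 was expressed in all libraries, with 3.68, 3.96 and 4.86 FPKM in controls 1 to 3, then 5.44, 2.82 and 92.4 FPKM in transports 1 to 3. Transport 1 was above and transport 2 below every control, and transport 3 was 17.0 times transport 1. As background, BCL6 is also made outside germinal centre B cells, for instance in follicular helper T cells. ENSSSCG00000011810 lies on the minus strand of chromosome 13 at 125377250 to 125393330.

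Within transport 3 the order of FPKM was CD79B, MS4A1, PAX5, FCRLA, BCL6, CD79A and BLK, from 186 to 42.8. In the other 5 libraries CD79A and BCL6 led, and MS4A1, PAX5, FCRLA and BLK stayed below 1 FPKM in each. The ratio of MS4A1 to CD79B was 0.884 in transport 3 and 0.0195 to 0.424 in the others.

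Among those 5 libraries the members did not share 1 order. MS4A1 and PAX5 were highest in transport 2 and control 2, with 1.77 and 1.70 CPM of MS4A1 and 2.47 and 2.32 CPM of PAX5, and no other library passed 0.727 CPM for MS4A1 or 0.550 CPM for PAX5. The exact Poisson intervals of these high and low values do not meet: for PAX5 the interval of control 2 began at 1.92 CPM and that of control 3 ended at 0.795 CPM. FCRLA had its highest values in the same libraries, at 1.22 CPM in control 2 and 1.17 in transport 2, with 0.929 in transport 1. CD79A, CD79B and BCL6 were highest in transport 1, at 51.2, 7.68 and 25.4 CPM, and BLK in control 3, at 1.97 CPM. ARHGEF1, which overlaps CD79A, was also highest of these 5 in transport 1, at 18.0 FPKM. Set against transport 3, the FPKM of MS4A1 in these 5 libraries was 0.0354% to 0.421% and that of PAX5 0.0368% to 0.202%.

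**Figure D2:**
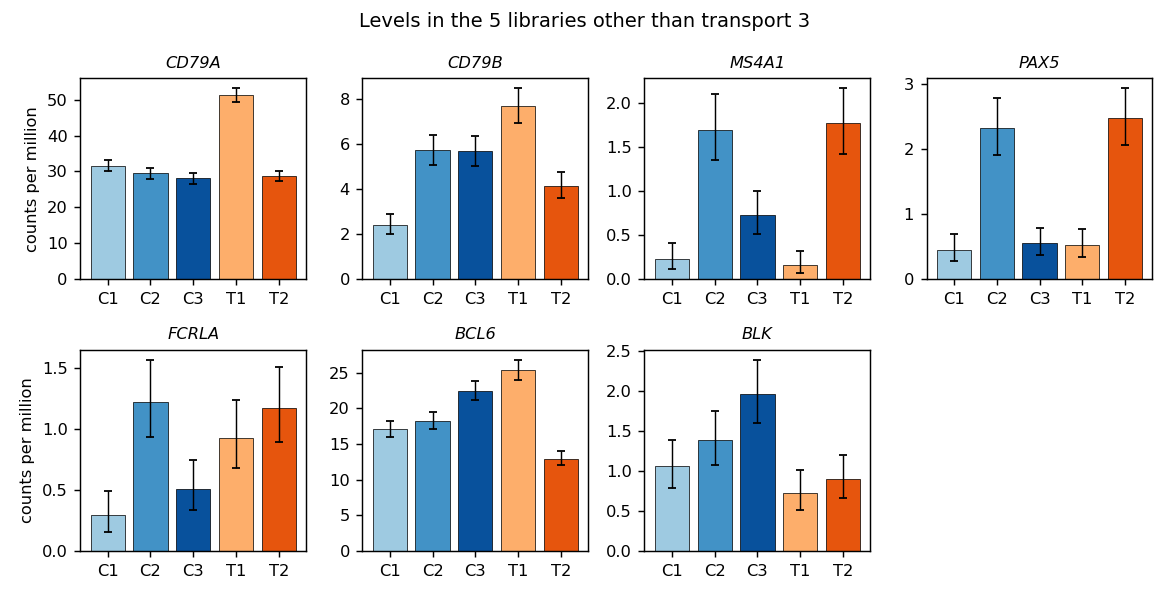
CPM of each member in controls 1 to 3 (C1 to C3) and transports 1 and 2 (T1, T2), as bars from 0 with exact Poisson 95% intervals for counting error. MS4A1 and PAX5 are highest in control 2 and transport 2, while CD79A, CD79B and BCL6 are highest in transport 1.

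The question of the study was how transport changes the jejunal transcriptome. In edgeR's quasi-likelihood test of transport against control, 3 members (CD79A, CD79B and BCL6) passed the filter of 1 FPKM or more in 3 or more libraries. Of these, 0 were called at an adjusted p of 0.05, where 0.0167% of the 12012 genes tested were called higher, and nothing is read from this count since the members were chosen on these libraries. At an unadjusted p under 0.05 there were 2 of the 3, where 5.13% of all genes tested were. DESeq2 called 0 of the 3 and gave 2 of them no adjusted p, where it called 0.416% of all genes. No member separated the groups, where 11.1% of genes tested did. MS4A1, PAX5, FCRLA and BLK reached an FPKM of 1 in 1 library each and so did not pass the filter.

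The size of the group difference depended on transport 3. To have all 7 members, the model was also fitted to the 13478 genes reaching 1 FPKM in some library, where 0 of the 7 were called beside 0.00742% of genes called higher. With all 6 libraries the log2 fold change of transport against control was 2.13 ± 0.87 (standard error) for CD79A, 4.91 ± 1.79 for CD79B, 7.06 ± 2.70 for MS4A1 and 8.26 ± 2.95 for PAX5. It was 7.22 ± 2.48 for FCRLA, 2.79 ± 1.20 for BCL6 and 4.76 ± 1.96 for BLK. Without transport 3 the values were 0.36 ± 0.28, 0.30 ± 0.52, 0.11 ± 1.24 and 0.39 ± 1.07 for the first 4, then 0.57 ± 0.80 for FCRLA, -0.06 ± 0.32 for BCL6 and -0.86 ± 0.56 for BLK. With the replicate number as a block, the 7 log2 fold changes ran from 0.98 for BLK to 2.63 for FCRLA. Mean FPKM shows the same spread, for example 1.80 ± 0.746 (SD, n = 3) in controls and 63.4 ± 106 after transport for CD79B, and 0.113 ± 0.108 and 42.1 ± 72.6 for PAX5.

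**Figure D3:**
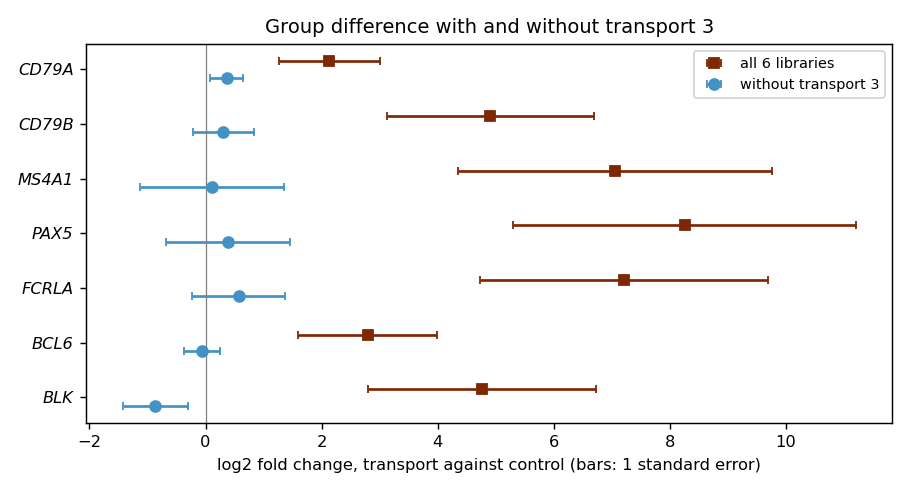
Log2 fold change of each member, transport against control, from edgeR with all 6 libraries (squares) and without transport 3 (circles), with bars of 1 standard error. Values of 2.13 to 8.26 with all libraries become -0.86 to 0.57 without transport 3.

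Genes that act with the members were described from lists chosen with earlier results of these data known. Of 22 B cell receptor signalling genes in the table, 21 were highest in transport 3, where their median was 11.9 times the median of the other 5 libraries. Such list medians, here and below, are from log2 CPM, while values of single genes are FPKM. Over all 13478 genes, transport 3 was the highest library for 41.0%, and the median log2 ratios of the 6 libraries lay between -0.015 and 0.021. The 6 genes of this list with the highest mean FPKM included 2 inhibitors of receptor signalling, the phosphatases INPP5D, at 118 FPKM in transport 3 against 5.68 to 14.0, and PTPN6, at 95.6 against 15.7 to 18.7. The adaptor BLNK, which links the kinase SYK to its targets, had 91.3 FPKM against 12.6 to 37.4, and the kinase LYN 55.2 against 13.8 to 19.9. The adaptor LAT2 had 59.6 against 11.5 to 20.9. The coreceptor component CD81, which many cell types carry, was the exception, at 53.2 FPKM in transport 3 within a range of 32.5 to 88.2. SYK and BTK, the kinases that follow the receptor chains, were picked after their values were seen and had 70.1 and 58.6 FPKM in transport 3, with highest values of 3.23 and 3.63 elsewhere.

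Of 17 transcription factors of the B lineage, 16 were highest in transport 3, with a median of 8.63 times the other libraries. POU2AF1, the B cell coactivator of octamer factors, was at 179 FPKM against 3.72 to 11.4, and SPIB at 119 against 5.86 to 9.84. SPI1, which myeloid cells share, was at 114 FPKM against 11.0 to 24.3. TCF3 had 57.5 against 5.98 to 14.8 and ID3, its inhibitor, 70.1 against 32.3 to 47.8. IRF8 was highest in control 3, at 31.8 FPKM, with 28.9 in transport 3.

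Surface and survival receptors of B cells gave 18 of 21 genes highest in transport 3 and a median of 15.1 times. TNFRSF13C, the receptor for the survival factor BAFF, had 63.5 FPKM against 0.444 to 0.897, and LY86, a partner of the B cell protein CD180, 98.0 against 2.53 to 6.54. FCRL3, an Fc receptor-like protein, had 37.8 FPKM against 0.227 to 1.62. The follicle homing receptor CXCR5, picked after its values were seen, had 10.2 FPKM against 0.0600 to 0.219. CD37, a leukocyte tetraspanin, had 33.1 against 1.39 to 3.58, and the proton channel HVCN1 33.4 against 0.291 to 2.57. CD52, carried by lymphocytes at large, had 5.64 FPKM in transport 3 within 3.92 to 11.5 in the others.

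Germinal centre genes other than BCL6 had 12 of 14 highest in transport 3 and a median of 23.2 times. ELL3, an elongation factor gene, was at 240 FPKM against 0.140 to 1.12, and GCSAM, a germinal centre signalling adaptor, at 127 against 1.40 to 2.88. S1PR2, a receptor that confines B cells to the germinal centre, had 84.4 FPKM against 0.715 to 2.42, and the germinal centre GTPase gene NUGGC 93.3 against 0.212 to 1.36. UNG, which removes uracil from DNA during antibody diversification, had 39.6 against 7.04 to 11.2, and EZH2, a histone methyltransferase, 38.1 against 5.67 to 10.5. All 12 genes of a separate proliferation list were also highest in transport 3, with a median of 3.18 times, such as PCNA at 134 FPKM against 17.8 to 37.2. The medians of that list ran from 0.480 to 1.58 times in the other libraries, and 10 of the 12 were lowest in transport 2. Which cells made the proliferation transcripts was not tested.

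The edgeR test called 0 of the 55 tested genes of these 4 B cell lists in either direction, with 23 at an unadjusted p under 0.05, all of them higher, where 3.52% of all genes tested were higher at that p. DESeq2 called 0 and gave 19 of them no adjusted p. Without overlap between the groups 14 of the 55 were higher, where 6.93% of all genes tested were. The lists were chosen with earlier results of these data known, so nothing is read from these contrasts. The median log2 fold changes were 2.12 for receptor signalling, 1.56 for transcription factors, 1.35 for surface receptors and 1.48 for germinal centre genes, beside 0.07 over all genes tested. Without transport 3 they were 0.46, 0.08, 0.43 and -0.09, and with the replicate block 1.26, 0.99, 1.09 and 0.90.

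**Figure D4:**
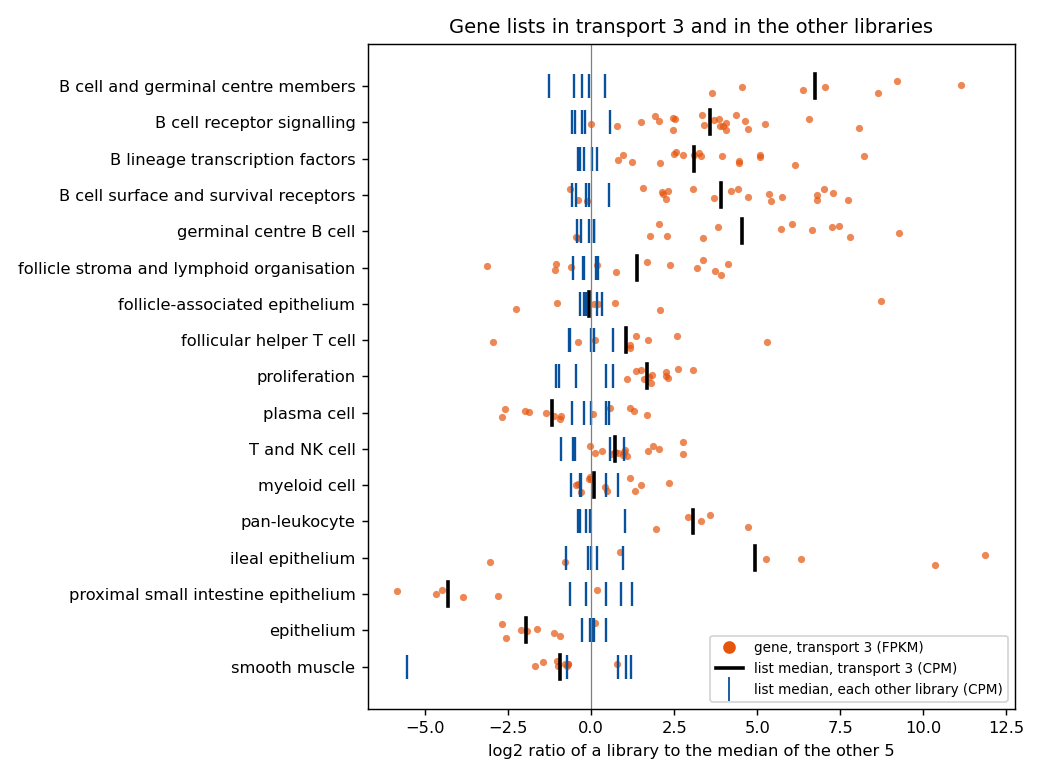
Log2 ratio of transport 3 to the median of the other 5 libraries for each gene (orange points, from FPKM; genes whose median elsewhere is at a count of 0 are not drawn), with the median of each list in transport 3 (black bars) and in each other library (blue ticks), both from CPM. The members have a median of 6.74 in transport 3, plasma cell genes -1.18 and genes of the proximal small intestine -4.30.

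Other parts of a lymphoid follicle were less uniform. Of 13 genes of follicle stroma and lymphoid organisation, 8 were highest and 3 lowest in transport 3. CLU and MFGE8, which follicular dendritic cells make, had 239 FPKM against 4.17 to 26.4 and 113 against 4.41 to 11.7, and the adhesion molecule VCAM1 60.9 against 4.75 to 12.6. The chemokine CCL19 was at 45.5 against 8.13 to 42.7. LTBR, the lymphotoxin beta receptor, had 12.0 FPKM, below its range of 13.8 to 40.5 elsewhere, and TNFSF13, the plasma cell survival factor APRIL, 2.14 against 14.0 to 23.0. Of 7 genes of follicle-associated epithelium 3 were highest there and 2 lowest. The M cell receptor GP2 had 21.5 FPKM against at most 0.562, while the chemokine CCL20 was lowest, at 1.44 against 3.83 to 25.6, and ANXA5, an annexin, lay at 27.6 within 10.4 to 45.6. Follicular helper T cell genes had 5 of 9 highest in transport 3, or 55.6% beside the 41.0% over all genes, and 1 lowest. The 3 with the highest mean FPKM were not highest there: the transcription factor MAF had 28.8 FPKM in transport 3 within 19.0 to 43.9, CD200 20.01 within 4.59 to 24.4, and the transcription factor ASCL2 was lowest, at 0.645 against 1.96 to 5.50. The cytokine receptor IL21R had 15.6 FPKM there against 0.252 to 0.483, the checkpoint receptor PDCD1 4.41 against 0.456 to 1.56, and CD40LG 1.18 within 0.963 to 1.73. Bulk tissue does not show which cells made these transcripts.

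Plasma cell genes had another order than the members. In transport 3, 7 of 13 were the lowest of the 6 libraries, where 21.6% of all genes were, and 3 were the highest. JCHAIN, the joining chain of secreted IgA and IgM, had 18.9, 85.8 and 258 FPKM in controls 1 to 3, then 108, 108 and 17.9 FPKM in transports 1 to 3. Its order is thus led by control 3, and transport 3 is the lowest. The ratio of CD79B to JCHAIN was 10.4 in transport 3 and at most 0.0494 elsewhere. SSR4, of the secretory translocon, was at 114 FPKM in transport 3 against 297 to 490, and FKBP11 at 22.5 against 49.4 to 117. In edgeR's test 0 of 13 were called in either direction, with 1 higher and 2 lower at an unadjusted p under 0.05 (3.52% and 1.61% of all genes tested) and 0 by DESeq2, and the median log2 fold change was -0.51 (-0.14 without transport 3).

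All 5 pan-leukocyte genes, which B cells also express, were highest in transport 3. Their median there was 8.40 times the other libraries beside 107 times for the members, both from log2 CPM. PTPRC, which encodes CD45, had 65.8 FPKM against 2.27 to 4.95. On FPKM that is 26.1 times the median of the other libraries, above CD79A at 12.5 and BCL6 at 23.4 times and below the other 5 members. The ratio of CD79B to PTPRC was 2.82 in transport 3 and 0.330 to 1.31 elsewhere. T and NK cell genes had a median of 1.64 times in transport 3, with 5 of 15 highest there. The T cell receptor chain CD3E had 18.3 FPKM within 7.79 to 24.3, while CD247, its zeta chain, had 54.8 against 6.66 to 12.8 and the kinase LCK 20.1 against 2.48 to 7.25. That list had a median log2 fold change of 1.09 with all libraries and 1.07 without transport 3. Myeloid genes had a median of 1.05 times, with 3 of 12 highest in transport 3 and C1QA, a complement gene of macrophages, at 45.2 FPKM within 18.8 to 86.5. Over whole lists, summed FPKM in transport 3 and in the range of the others was 595 against 63.7 to 117 for pan-leukocyte genes, 174 against 57.0 to 118 for T and NK cell genes and 289 against 135 to 434 for myeloid genes.

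Epithelial genes differed in the same library by gut region. Of 7 ileal genes 5 were highest in transport 3 and the other 2 lowest. FGF19, the hormone that ileal cells release on bile acid uptake, had 24.5 FPKM against 0.112 to 4.10, and the bile acid exporter subunit SLC51A 31.4 against 6.54 to 29.5. Its partner SLC51B was lowest, at 52.3 against 64.9 to 168, as was NR0B2, a nuclear receptor induced by bile acids, at 0.868 against 6.39 to 10.2. Of 6 genes of the proximal small intestine 5 were lowest there. Of 8 general epithelial genes 7 were lowest there, for example KRT8 at 167 FPKM against 599 to 819, while the microvillus gene VIL1 was at 274 within 136 to 320. The part that ileal tissue, a follicle in the sampled piece or transport itself had in the level of the members was not tested, and with 1 such library these cannot be told apart.

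The genes most like the members were taken among 12153 other named genes reaching 1 FPKM in some library. By distance to the mean centred log2 CPM of the members over 6 libraries, the nearest 15 held 6 genes of the B cell lists, among them CXCR5, POU2F2, TNFRSF13C, FCRL4 and GCSAM. Distances ran from 0.946 to 1.42 log2 units, and TMIGD1 was first, at 314 FPKM in transport 3 against 0.771 to 4.32. KLHL6, a germinal centre gene in mice, LRMP, a lymphocyte membrane protein, TEX35, IGFBPL1, ZNF70, TMEM163, FAM43B and CLEC4G were also in the list, the last 2 with a count of 0 in the other 5 libraries. By Pearson correlation over the same 6 libraries, 44 genes reached 0.99. The leading 15 held 1 gene of any list, PTPN6, and included genes with small steps such as CCM2, at 15.7 FPKM against 5.07 to 5.97. KLHL6 was the gene named by both measures, at 101 FPKM against 0.139 to 0.396. Each such correlation rests on 1 high library, and the members themselves had 0.956 to 0.995. Distance rests on it as well: the mean profile was 5.77 in transport 3 and -1.82 to -0.56 in the other libraries. Genes could also enter through transport 3 alone, and the lists were chosen with earlier results known. Nothing is therefore read from the overlap with the lists.

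**Figure D5:**
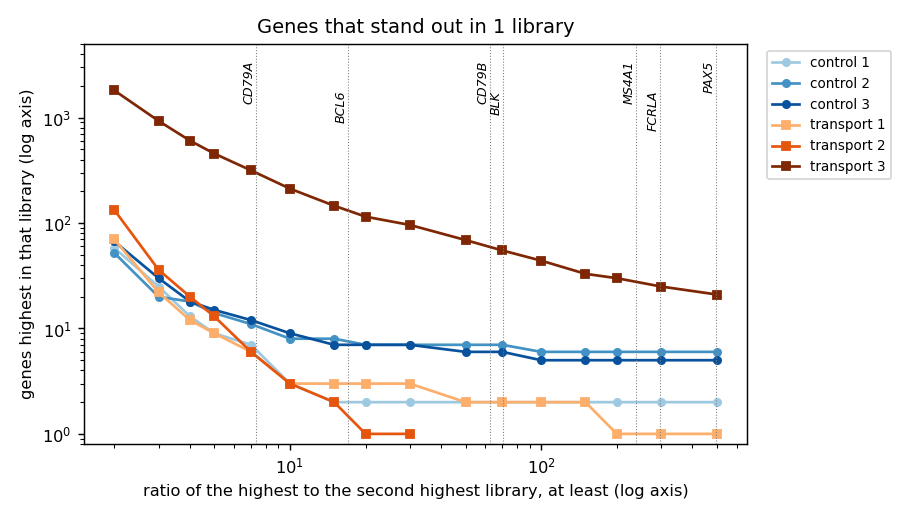
Number of genes (log axis) that are highest in each library by at least a given ratio over the second highest library (log axis), with dotted lines at the ratios of the 7 members. At 10 times, transport 3 has 212 genes and the other libraries 3 to 9 each.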

How the data were processed

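RNA sequencing of 6 jejunal samples was read from 1 gene table. Per the file headers, the authors deposited a count per gene and library, as whole numbers without normalization, and an FPKM value computed by the authors. A count of 0 is written as an FPKM of 0.0001. No aligner, counting tool, strand setting or build was named in the labels or header. Transport columns carry another prefix than the labels and were matched by group and replicate number.

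A gene name reference gave symbols to 951 of 6907 rows that the table left unnamed. The 12012 genes at 1 FPKM or more in 3 or more of 6 libraries were tested on counts with edgeR 4.0.16 in R 4.3.3. The quasi-likelihood test used TMM scaling, no factor but group, Benjamini-Hochberg adjustment and a threshold of 0.05. It was checked on simulated data with less scatter than these libraries and no deviant library. That check does not show how the test handles a library like transport 3. Standard errors derive from the F statistic. Log2 CPM used a prior count of 2. Alternatives used DESeq2 1.42.0, limma 3.58.1, other filters and scaling, a replicate block and fewer libraries. Deviations from group means correlated between libraries of equal number with r = 0.217, 0.111 and 0.187. Between libraries of unequal number r ran from -0.261 to 0.101. Whether the numbers pair the libraries is not stated. With 3 libraries per group, and deviations that depend on each other within a group, these values cannot decide it. The main fit has no block, and the block is given as an alternative.

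Members and lists were chosen with earlier results of these data known. All members were named, with up to 6 genes per list by mean FPKM and the 15 genes nearest by each of 2 measures. Some genes are not reported here by name but count in the totals of their lists. No sequences were used here.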

Additional observations from a re-analysis of the deposited data

How the results depend on the processing

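The number of genes called between transport and control was 2 in edgeR and changed with the processing. It was 1 when genes reaching 1 FPKM in any 1 library were kept, 1 with limma on log2(FPKM + 1) or log2(FPKM + 0.1), and 50 with DESeq2 (27 higher, 23 lower). With 1 library left out in turn it ran from 0 to 3: it was 0 without control 1, 2 or 3 or transport 1 or 2, and 3 without transport 3. Without both control 2 and transport 3, an alternative chosen after seeing the data, it was 1. With the replicate block it stayed at 2, and no call on a list changed. DESeq2 called 3 of the 15 tested genes of the T and NK cell list, beside 0.416% of all genes tested, where edgeR called 0. In edgeR's test 11 of the 15 were higher at an unadjusted p under 0.05, beside 3.52% of all genes tested. Without overlap between the groups 12 of the 15 were higher, beside 6.93%. This list too was chosen with earlier results known, so nothing is read from these contrasts. Among the members, leaving out transport 3 took the log2 fold change of PAX5 from 8.26 to 0.39, and the block took it to 1.88. Under limma, where the log2 values of the libraries in a group are averaged, it was 2.31 on log2(FPKM + 1) and 3.26 on log2(FPKM + 0.1). Under 3 other scalings the ratio of the highest to the second highest library was 408 to 497 for PAX5, beside 495 on FPKM. For CD79A it was 6.49 to 7.23, beside 7.30. For each of the 7 members it moved by less than 1 SD between replicates. That SD includes transport 3 and is wide, and each scaling applies 1 factor per library, so this check could hardly fail. Depth limits MS4A1, PAX5, FCRLA and BLK outside transport 3, at 8 to 127 counts.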
